A study of Mus musculus with 12 samples.

Results

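Ctdspl, Lars2 and Ptprr each hold, inside the gene, a cytosine that was almost fully methylated in one fibroblast line of the study and almost unmethylated in the other. The genes were chosen by that difference. Cytosines called between the lines (limma, Benjamini-Hochberg adjusted p under 0.05) with the same sign at each day from 5 to 20 were ranked by the difference of the group means. The Ctdspl and Lars2 cytosines hold ranks 1 and 2 among those higher in the experimental line, and the Ptprr cytosine holds rank 2 among those lower in it, so the differences between the lines are given here as a description with no test. From 1500 bp upstream of the first base to the end of each gene, 212 cytosines were listed in all 12 libraries, of 606488 on the autosomes, and the genes are 3 of 47042 autosomal RefSeq genes. Ctdspl held 148 of these cytosines, Lars2 held 24 and Ptprr held 40.

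Reduced representation bisulfite sequencing (RRBS), which reads methylation at cytosines of CpG-rich restriction fragments, was applied to 2 lines of SV40-immortalized mouse embryonic fibroblasts (iMEFs). The experimental line carried R26M2rtTA/+;TetOcre;Sdhcfl/fl and the control line R26M2rtTA/+;TetOcre;Sdhcfl/wt, where Sdhc encodes a membrane subunit of succinate dehydrogenase. Both lines thus shared the rtTA transactivator and the doxycycline-driven Cre, and both received doxycycline at 1 µg/mL, with 1 library from each line before doxycycline (day 0) and at days 5, 9, 12, 16 and 20 of it. The groups compared were experimental days 5 to 20 (n = 5) and control days 0 to 20 (n = 6), and experimental day 0 was kept apart. Each group is 1 line, so line, genotype and any difference in culture history cannot be told apart, and an SD here is the spread between time points of 1 line and not between independent cultures. Values are beta values, the methylated share of the reads at a cytosine, from 0 to 1. The number of reads behind a value is unknown because the files give no read counts, so no interval could be set on a single value. The libraries listed between 932307 and 1716381 cytosines, and control day 12, with the fewest, stood below every other library (1394408 or more).

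Ctdspl encodes a small phosphatase that removes phosphate from the C-terminal domain of RNA polymerase II and from RB-family proteins, and an intron of the gene carries Mir26a-1, a microRNA gene. Lars2 encodes the leucyl-tRNA synthetase of mitochondria, which charges the tRNA used in translation of the mitochondrial genome. Ptprr encodes a tyrosine phosphatase with a kinase interaction motif, which binds and inactivates MAP kinases. In mammalian genomes CpG-dense promoters are usually unmethylated and the bodies of genes are usually methylated, and loss of succinate dehydrogenase raises succinate, an inhibitor of the TET enzymes that oxidize methylcytosine.

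In mm10 coordinates, Ctdspl (gene 69274) lies on the plus strand at chr9:118926536-119044119, Lars2 (gene 102436) on the plus strand at chr9:123366927-123462675 and Ptprr (gene 19279) on the plus strand at chr10:116018188-116274932. The cytosines on which the genes were chosen, called key cytosines here, are chr9:118937130 in Ctdspl, chr9:123435045 in Lars2 and chr10:116266786 in Ptprr. The Ctdspl key cytosine lies 10594 bp after the first base of the gene and that of Lars2 lies 68118 bp after it. That of Ptprr lies 248598 bp after the first base and 8146 bp before the end, and the nearest of the 4 annotated Ptprr start sites is 89435 bp away. All of them are far outside the promoter window of 1500 bp upstream to 500 bp downstream of the start. Exon and intron borders were not used here. The promoters are shown to set the start of each gene beside a key cytosine that lies far inside it. Each line below is RefSeq sequence of build GRCm38.p6, plus strand, 5′ to 3′, from 250 bp before the annotated start site to 50 bp after it, and capitals mark the cytosines listed in all 12 libraries (C on the plus strand, G where the cytosine is on the minus strand).
Ctdspl, chr9:118926286-118926585: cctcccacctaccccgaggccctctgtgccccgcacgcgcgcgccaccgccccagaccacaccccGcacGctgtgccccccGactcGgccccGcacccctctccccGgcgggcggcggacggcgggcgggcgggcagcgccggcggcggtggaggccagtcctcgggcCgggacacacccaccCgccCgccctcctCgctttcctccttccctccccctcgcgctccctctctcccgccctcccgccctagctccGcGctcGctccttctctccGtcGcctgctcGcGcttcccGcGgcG
Lars2, chr9:123366677-123366976: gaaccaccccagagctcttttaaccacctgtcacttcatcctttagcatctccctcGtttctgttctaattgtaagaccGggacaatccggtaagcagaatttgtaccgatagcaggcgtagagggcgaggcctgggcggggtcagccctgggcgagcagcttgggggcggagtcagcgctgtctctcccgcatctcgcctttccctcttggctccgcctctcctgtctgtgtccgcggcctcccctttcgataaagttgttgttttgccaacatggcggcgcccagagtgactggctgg
Ptprr, first start site, chr10:116018113-116018412: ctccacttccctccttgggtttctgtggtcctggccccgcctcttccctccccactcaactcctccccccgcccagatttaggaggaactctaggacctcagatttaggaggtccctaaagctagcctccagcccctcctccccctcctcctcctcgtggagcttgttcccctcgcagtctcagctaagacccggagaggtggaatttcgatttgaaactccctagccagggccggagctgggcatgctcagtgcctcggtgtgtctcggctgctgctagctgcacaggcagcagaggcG

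The Ctdspl stretch holds 43 CpG dinucleotides, as many as or more than all but 2.61% of 32851 promoter windows of the same length, of which the median holds 7. Lars2 holds 18 CpG in its stretch (29.7% of windows hold as many) and Ptprr holds 10 (43.5%). The 20 listed cytosines of the Ctdspl stretch were close to 0 in both lines, with 14 of them at the same value in all 12 libraries and a highest single value of 0.0476. Of the 2 listed cytosines in the Lars2 stretch, the one 171 bp before the start was at 0.882 in control day 12 and between 0 and 0.212 in the other control libraries. The single listed cytosine of the Ptprr stretch averaged 0.131 in the experimental line and 0.0648 in the control line.

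At the Ctdspl key cytosine the experimental line was methylated and the control line was not. The beta values of the experimental line were 0.962, 1, 0.955, 1 and 1 at days 5, 9, 12, 16 and 20. The control line was at 0 in every library but day 5, where the value was 0.0417. The groups did not overlap, and their means were 0.983 ± 0.0229 (SD, n = 5) and 0.00694 ± 0.0170 (SD, n = 6), a difference of 0.976.

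The Lars2 key cytosine had the same pattern. The experimental values were 1, 1, 1, 0.92 and 1 from day 5 to day 20. The control values had a lowest value and a median of 0 and a highest of 0.0435, at day 0. The groups again did not overlap, with means of 0.984 ± 0.0358 (SD, n = 5) and 0.0107 ± 0.0181 (SD, n = 6), a difference of 0.973.

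The Ptprr key cytosine was the other way round, methylated in the control line and not in the experimental line. All 6 control libraries were at 1. The experimental values were 0.429 at day 5 and 0 at days 9, 12, 16 and 20, a mean of 0.0857 ± 0.192 (SD, n = 5). The difference of means was -0.914 and the groups did not overlap, although the day 5 library lay about midway between them.

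**Figure D1:**
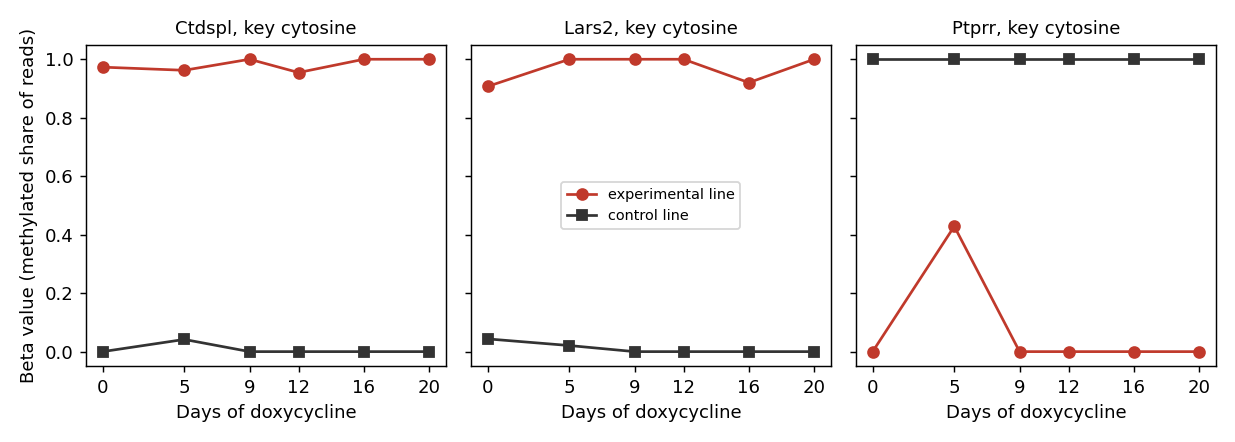
Beta value (y axis, 0 to 1) at the key cytosine of Ctdspl, Lars2 and Ptprr against days of doxycycline (x axis), with 1 point per library, circles for the experimental line and squares for the control line. The lines are already apart at day 0 in each panel, and the single intermediate point is Ptprr in the experimental line at day 5, at 0.429.

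The difference was already there in the libraries taken before doxycycline. Experimental day 0, which the ranking did not use, was at 0.973 for Ctdspl against 0 in control day 0, and at 0.907 against 0.0435 for Lars2. For Ptprr it was at 0 against 1. Among the 39 member cytosines whose group means differed by more than 0.2, experimental day 0 lay nearer to the experimental mean than to the control mean at 30 (76.9%), and over all 84395 such cytosines of the table it did so at 69.2%. By gene these were 14 of 20 in Ctdspl, 3 of 3 in Lars2 and 13 of 16 in Ptprr. The 39 include the key cytosines, chosen for large differences, and neighbours within 300 bp that differed the same way by more than 0.2. At all of these experimental day 0 lay nearer to the experimental mean. No conclusion is therefore drawn from the higher share among the 39.

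Just outside the ranks that chose the genes, the cytosine ranked 3 among those higher in the experimental line was in Hcn2 (chr10:79718517, difference 0.952), and rank 3 among the lower ones was in Runx3 (chr4:135156008, difference -0.914). In all, 3108 cytosines were called with the same sign at each day. A cytosine in the regions of both Sall1 and Gm3134 (chr8:89041222, difference -0.917) held rank 1 among the lower ones, before that of Ptprr. It is not in the genes described here, so rank alone does not give the choice of genes.

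How far each difference reached was measured as the unbroken run of listed cytosines around the key one whose difference was over 0.2 in the same direction. The runs were unlike in the 3 genes. In Ctdspl the run was the key cytosine alone. The listed neighbour 42 bp upstream was at 1 in all 12 libraries, and the neighbour 81 bp downstream averaged 0.913 ± 0.0626 in the experimental line (SD, n = 5) and 0.990 ± 0.0255 in the control line (SD, n = 6). The next cytosines, 139, 152 and 172 bp downstream, had differences of -0.0450, 0.0422 and -0.00686. The cytosine 182 bp downstream was lower in the experimental line, at 0.753 ± 0.0990 (SD, n = 5) against 0.896 ± 0.101 (SD, n = 6). The control line was thus methylated on both sides of a key cytosine that was unmethylated in it.

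In Lars2 the run held 2 cytosines in 22 bp. The neighbour 21 bp downstream of the key cytosine had experimental values of 0.805, 0.933, 0.974, 0.56 and 0.583 from day 5 to day 20 and control values from 0 to 0.375 (median 0.207). The groups did not overlap there, but the means, 0.771 ± 0.193 (SD, n = 5) and 0.175 ± 0.149 (SD, n = 6), were nearer each other than at the key cytosine, with a difference of 0.596. The flanking cytosines did not separate the lines. The one 27 bp upstream averaged 0.798 ± 0.114 in the experimental line and 0.825 ± 0.223 in the control line, and the one 126 bp downstream had a difference of -0.0237. Beyond those, the nearest cytosines listed in all 12 libraries were 53780 bp upstream (difference -0.148) and 19565 bp downstream (0.142). The cytosines kept here thus do not show how the stretches between them behaved. Within 1000 bp of the key cytosine, counting it, 8 positions were listed in any library and 4 in all 12.

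In Ptprr the run held 5 cytosines in 232 bp, and all 5 were low in the experimental line and high in the control line. At the cytosine 14 bp downstream the experimental values were 0.143, 0.25, 0, 0 and 0 and the control values ran from 0.5 to 1 (median 1), a difference of means of -0.789. At 31 bp the experimental line was at 0.286 on day 5 and 0 afterwards, while the control values ran from 0.308 to 1 (median 0.853), with a difference of -0.723. At 43 bp the experimental values were 0.429, 0, 0.333, 0 and 0 and every control library was at 0.923 or above, with a difference of -0.835. At 231 bp the experimental values ran from 0 to 0.295 and the control values from 0.5 to 1 (median 0.722), with a difference of -0.639. The groups did not overlap at any of the 5 cytosines, and experimental day 0 was between 0 and 0.0625 at all of them. The experimental day 5 library was above 0 at each. The next listed cytosines, 2012 bp upstream and 4254 bp downstream, had differences of -0.0338 and -0.0999. At the upstream one both lines were methylated (0.966 ± 0.0620 and 1 ± 0), and at the downstream one both varied widely between time points (0.587 ± 0.302 and 0.687 ± 0.294).

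**Figure D2:**
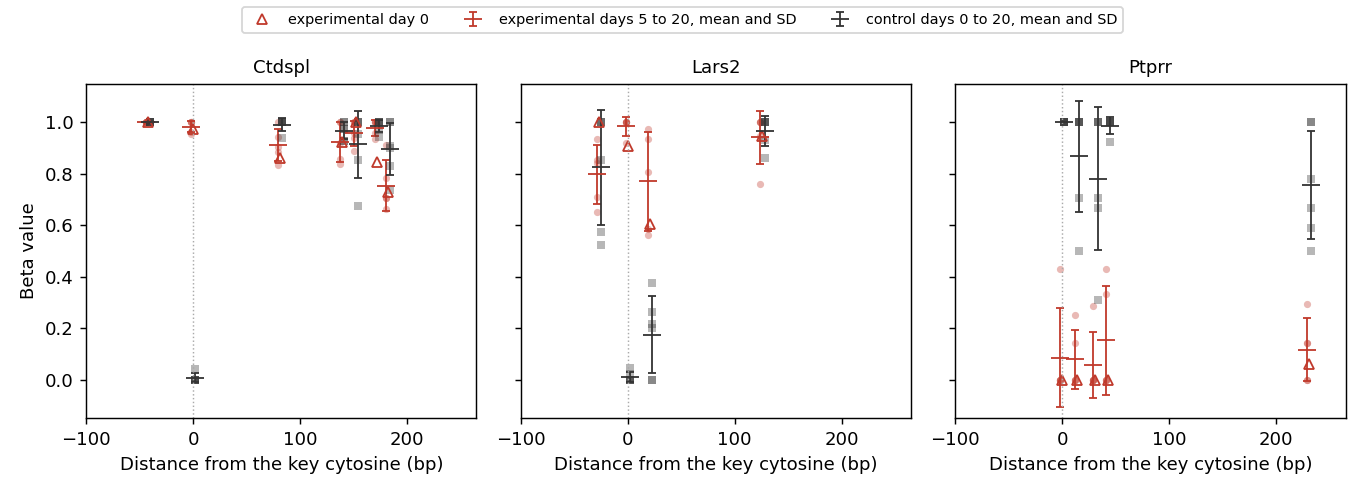
Beta values (y axis) of the listed cytosines within 250 bp of the key cytosine against their distance from it in bp (x axis) in Ctdspl, Lars2 and Ptprr. Faint points are single libraries, horizontal ticks with bars are the mean and SD of experimental days 5 to 20 (circles, n = 5) and control days 0 to 20 (squares, n = 6), and open triangles are experimental day 0. The lines separate at 1 cytosine in Ctdspl, at 2 in Lars2 and at 5 in Ptprr.

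The same runs were found with a difference of 0.1 or 0.3 in place of 0.2, without any 1 library, and with cytosines listed in at least 4 libraries of each group. From the difference between the day 0 libraries alone, the Ctdspl run was again 1 cytosine, that of Lars2 held 3 in 49 bp and that of Ptprr held 6 in 4255 bp. The added Lars2 cytosine is the one 27 bp upstream, at 1 in experimental day 0 and 0.522 in control day 0.

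For comparison, runs were measured around the other 911 called cytosines with a difference over 0.5. Cytosines that share a run were each counted, so a long run can enter more than once. The shares below are thus of cytosines and not of separate runs. Of these, 35.0% had a run of 1 cytosine as in Ctdspl, 21.3% a run of 2 as in Lars2 and 25.5% a run of 5 or more as in Ptprr. Of the 540 with at least 2 listed neighbours within 100 bp, 18.3% had no neighbour there that differed by over 0.2 in the same direction, which was also the case for Ctdspl (0 of 2 neighbours), and 36.7% had every neighbour doing so, as did Ptprr (3 of 3). Around those 911 cytosines the share of neighbours with the same difference was 62.8% within 100 bp, 37.5% beyond that and up to 300 bp, and 14.9% beyond 1000 and up to 3000 bp. Each of the 3 patterns was thus shared by many cytosines with a large line difference, and the number of separate runs was not counted.

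**Figure D3:**
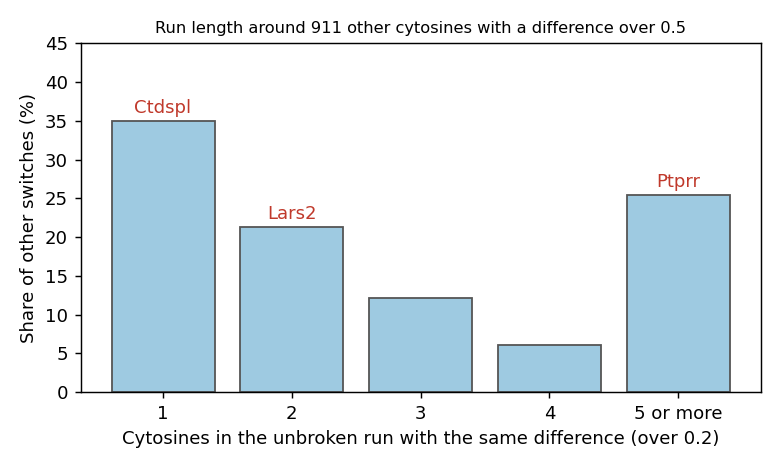
Share in percent (y axis) of the other 911 called cytosines with a difference over 0.5 by the number of cytosines in the unbroken run that differed the same way by over 0.2 (x axis). Names over the bars mark where Ctdspl (1 cytosine), Lars2 (2) and Ptprr (5) lie.

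No CpG holding a key cytosine was read on both strands: the paired position was listed in none of the 12 libraries. Values of the key cytosines were thus deposited for 1 strand each. Bisulfite treatment turns unmethylated C into T, so a C-to-T base difference between a line and the mm10 reference would be read as an unmethylated cytosine. Base calls of the lines were not analysed here, and the part of such a difference in these values was not tested. Elsewhere in the genes both cytosines of a CpG were listed in 8 cases, 5 in Ctdspl, 2 in Lars2 and 1 in Ptprr. At 7 of them neither strand differed by over 0.2, and at the other, in Ctdspl 26295 bp downstream of the key cytosine, the difference was -0.263 on one strand and 0.0194 on the other.

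Away from the key cytosines, most listed cytosines of Ctdspl and Lars2 had a difference of means of 0.2 or less. In Ptprr 16 of 40 (40%) passed 0.2, a count that holds the 5 cytosines of the run, the key one among them. Of all listed cytosines, those identical in all libraries included, 13.9% did. In the Ctdspl promoter window 33 cytosines averaged 0.0154 ± 0.0183 in the experimental line (SD, n = 5) and 0.0139 ± 0.0134 in the control line (SD, n = 6), and the 114 cytosines of the rest of the gene, without the key one, averaged 0.880 ± 0.0165 and 0.884 ± 0.0138. The Ctdspl key cytosine in the control line was therefore at the level of the promoter, within a gene body that was methylated in the same libraries.

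In Lars2 the 10 cytosines of the promoter window averaged 0.0185 ± 0.0208 in the experimental line and 0.0256 ± 0.0333 in the control line. The 13 others without the key one averaged 0.876 ± 0.0148 and 0.805 ± 0.0497, with the control libraries between 0.725, at day 12, and 0.861. Without control day 12 the control mean of these was 0.821.

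Ptprr was less uniform. The 6 cytosines of the window around its first base averaged 0.211 ± 0.123 in the experimental line and 0.153 ± 0.188 in the control line, with a control library, day 16, at 0.518 and the others between 0 and 0.167. The 33 cytosines of the rest of the gene averaged 0.628 ± 0.0146 and 0.653 ± 0.0215, lower in both lines than in the other 2 genes. These 33 still hold the run cytosines other than the key one, which were lower in the experimental line. Over all 40 listed Ptprr cytosines, 9 were higher by over 0.2 and 7 lower. Near means thus do not show like values at single cytosines. No listed cytosine lay within 1500 bp upstream to 500 bp downstream of the other 3 Ptprr start sites.

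**Figure D4:**
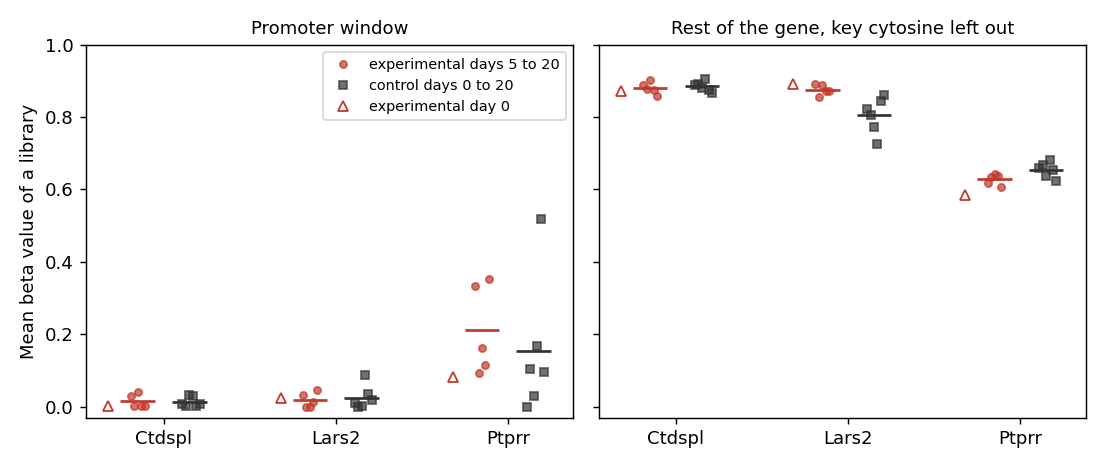
Mean beta value of a library (y axis) over the promoter window (left) and over the rest of the gene without the key cytosine (right) in Ctdspl, Lars2 and Ptprr. Circles are experimental days 5 to 20, squares control days 0 to 20, open triangles experimental day 0, and horizontal lines the group means. The lines overlap in every promoter window, and the single high square is Ptprr in control day 16 at 0.518.

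Of the 212 cytosines, 189 varied between libraries and entered the fit, and 23 had 1 value throughout (20 in Ctdspl and 3 in Lars2). The fit called 6 of the 189 between the lines, where 0.615% of the 508351 cytosines tested were called. It called 2 as higher in the experimental line (0.335% of all tested), the key cytosines of Ctdspl and Lars2, and 4 as lower (0.279% of all tested). The lower ones were the Ptprr key cytosine, the Ptprr cytosines 14 and 43 bp from it, and a Ctdspl cytosine 15103 bp downstream of the key one. These counts come from the contrast that chose the genes. The groups did not overlap at 10 of the 189 cytosines, where this held for 2.26% of all tested: 2 in Ctdspl, 3 in Lars2 and the 5 of the Ptprr run.

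The called Ctdspl cytosine 15103 bp downstream, chr9:118952233, had experimental values of 0.704, 0.848, 0.844, 0.833 and 0.667. The control line was at 1 in every library but day 20, at 0.889. The groups did not overlap, the means were 0.779 ± 0.0870 (SD, n = 5) and 0.981 ± 0.0454 (SD, n = 6), and experimental day 0 was at 0.55. Its call was lost without any 1 of 10 of the 11 libraries (adjusted p up to 0.0955), control day 20 being the exception. The Ptprr cytosine 14 bp from the key one kept its call without experimental day 9, control day 9 or control day 20 and lost it without any 1 of the other 8, with adjusted p up to 0.0964. In Lars2 the third cytosine without overlap lay 19597 bp downstream of the key one, with experimental values from 0.679 to 0.8 and control values from 0.0482 to 0.674. The lowest control value there was day 12, and the difference was 0.258 with it and 0.174 without it.

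A difference of means over 0.2 was found at 39 of the 212 cytosines, where 13.9% of all listed cytosines had one. These were 20 of 148 in Ctdspl (13.5%), 3 of 24 in Lars2 (12.5%) and 16 of 40 in Ptprr (40%). The key cytosines and the runs around them are counted here, although the genes were chosen by that difference. The 13.9% also counts cytosines identical in all libraries, of which Ptprr had 0. In Ctdspl 11 were higher in the experimental line and 9 lower, in Lars2 all 3 were higher, and in Ptprr, whose key cytosine was lower, 9 were higher and 7 lower. Outside the Ptprr run, 9 of the other 11 Ptprr cytosines past 0.2 were higher in the experimental line. Control day 12 was the lowest or the highest control library, alone or tied, at 33 of the 39, and without it 36 of them still differed by over 0.2, all in the same direction.

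Apart from the runs, the cytosines with the widest gaps between the means varied strongly between time points. In Ctdspl the widest was 105253 bp downstream of the key one, where the experimental line was at 0.6 on day 16 and at 1 on the other 4 days, and the control line ran from 0 to 0.778 (median 0.25). A pair of Ctdspl cytosines 65391 and 65441 bp downstream averaged 0.626 ± 0.247 and 0.752 ± 0.249 in the experimental line (SD, n = 5) and 0.132 ± 0.160 and 0.314 ± 0.251 in the control line (SD, n = 6). At those cytosines the groups overlapped. The Ctdspl cytosine 2438 bp downstream was at 0.950 ± 0.0476 in the experimental line and ran from 0 to 1 in the control line, with experimental day 0 at 0.273, nearer to the control mean. The Ctdspl cytosine 84313 bp downstream was lower in the experimental line, with a mean of 0.351 ± 0.129 against 0.688 ± 0.20. In Ptprr the widest gap outside the run was 86370 bp upstream of the key cytosine, with experimental values of 0.583, 1, 1, 0.833 and 1 and control values from 0 to 0.774 (median 0.231). It was 0.558, against the direction of the key cytosine.

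**Figure D5:**
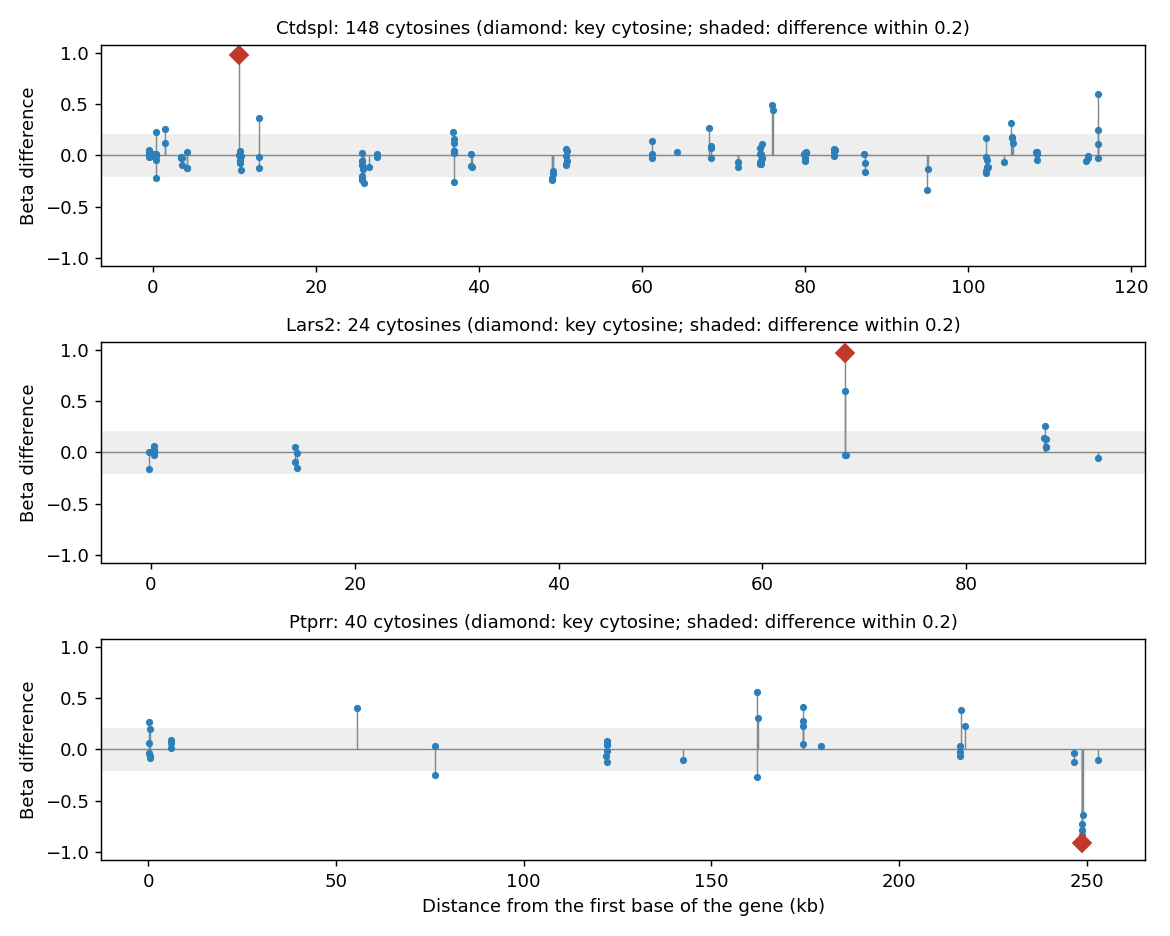
Difference of mean beta values, experimental days 5 to 20 minus control (y axis, -1 to 1), for the listed cytosines of Ctdspl, Lars2 and Ptprr against distance from the first base of the gene in kb (x axis). Diamonds are the key cytosines at 0.976, 0.973 and -0.914, the shaded band covers differences within 0.2, and in Ptprr the other 4 cytosines of the run lie beside the diamond.

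Mir26a-1, inside Ctdspl at chr9:119031796-119031885, is one of the genes that give miR-26a-5p (the other is Mir26a-2), whose mature RefSeq sequence is given with its seed, bases 2 to 8, in capitals because that seed sets which messages the microRNA binds.
mmu-miR-26a-5p: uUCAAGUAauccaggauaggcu
No listed cytosine lay within the hairpin, and 4 lay within 500 bp of it. The nearest upstream one, 73 bp before the hairpin and 94593 bp from the Ctdspl key cytosine, averaged 0.813 ± 0.215 in the experimental line (SD, n = 5) and 0.497 ± 0.246 in the control line (SD, n = 6). Its lowest control value was 0.0441, at day 12, and without that library the control mean was 0.588. The nearest downstream one, 6 bp after the hairpin, averaged 0.835 ± 0.241 and 0.661 ± 0.175. All 4 averaged higher in the experimental line, the groups overlapped at each, and none was called (adjusted p from 0.330 to 0.731, limma with Benjamini-Hochberg adjustment).

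Whether the lines moved apart with days of doxycycline was asked with the product of line and day over all 12 libraries. This contrast did not choose the genes. The rule that did, a call with the same sign at each day and a large difference, favoured cytosines steady over the days. At the key cytosines that rule left little room for a trend, so no conclusion is drawn from the result there. No cytosine was called for line by day by limma, 0% of the 508351 tested and 0 of the 189 members, and the adjusted p was 0.993 at each key cytosine. At an unadjusted p under 0.05 there were 10 members (5.29%), beside 4.17% of all tested. The key cytosines were not among the 10. Their slope of the line difference per day was 0.15 on the M-value scale (a log2 ratio of methylated to unmethylated share) in Ctdspl, 0.20 in Lars2 and -0.13 in Ptprr, with unadjusted p of 0.195, 0.160 and 0.447 from limma.

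The smallest unadjusted p among the members belonged to neighbours of key cytosines. The Ctdspl cytosine 152 bp downstream had a slope of -0.50 per day (unadjusted p = 0.00101, adjusted p = 0.993, limma), and its control values were 0.674, 0.854, 0.956, 1, 1 and 1 from day 0 to day 20. The Lars2 cytosine 27 bp upstream had a slope of -0.61 (unadjusted p = 0.00145, adjusted p = 0.993, limma), with control values of 0.522, 0.854, 0.574, 1, 1 and 1 and experimental values of 1, 0.854, 0.933, 0.711, 0.84 and 0.652. Neither passed the correction. Within a line, no cytosine was called for a trend with day either. At an unadjusted p under 0.05, 7 members (3.70%) had a trend in the experimental line, beside 4.36% of all tested, and 15 (7.94%) in the control line, beside 5.08% of all tested.

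The cytosines in other genes whose 12 values lay nearest to those of a key cytosine (Euclidean distance over the 12 beta values) were found over all autosomal RefSeq genes. The Ctdspl and Lars2 key cytosines were nearest to each other, at a distance of 0.129, which follows from the rule that chose both for values near 1 in the experimental line and near 0 in the control line. After Lars2, the nearest to Ctdspl were cytosines of Hk1 (0.245) and Thbd (0.271). After Ctdspl, the nearest to Lars2 were in Gdf6 (0.282) and Thbd (0.306). For Ptprr the nearest were in Gm51701 (0.357), in the overlapping Gm26550 and Lypd3 (0.434) and in Hoxb3os (0.435), all of them farther than the neighbours of the other key cytosines.

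The genes on either side were read for comparison. Over all listed cytosines 13.9% differed by over 0.2, and 0.615% of those tested were called. Ptprb, which lies 570 bp after the end of Ptprr, had 64 listed cytosines with a mean of 0.713 ± 0.0481 in the experimental line and 0.569 ± 0.0300 in the control line. There 22 cytosines were higher by over 0.2 and 1 lower, the opposite of the Ptprr run, and 2 were called, both higher. Itga9, which lies 25533 bp before Ctdspl, had 114 listed cytosines, with 8 higher and 24 lower by over 0.2 and 3 called, all lower, and means of 0.546 ± 0.0152 and 0.624 ± 0.0175. Next to Lars2, Tmem158 had 1 of 55 cytosines higher and 1 lower by over 0.2, and Limd1 had 1 of 31 higher and 4 lower, with none called. Vill, 8610 bp after Ctdspl, had 9 listed cytosines, with 2 higher and 0 lower by over 0.2. Its means were 0.698 ± 0.0498 in the experimental line and 0.579 ± 0.0403 in the control line. Tspan8, before Ptprr, had 5 listed cytosines, with 0 past 0.2 and means of 0.876 ± 0.0320 and 0.884 ± 0.0851. No cytosine of Vill or Tspan8 was called.

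Promoters of genes that work with the 3 proteins were counted from lists of related phosphatases, synthetases and kinases, where 2.57% of the 13142 promoters with at least 3 listed cytosines were called between the lines and 18.1% had an unadjusted p under 0.05 (limma). None of the 12 promoters tested for the small phosphatases and their pocket protein, SMAD and transcription factor targets was called, and 1 had an unadjusted p under 0.05, that of Ctdsp1, a close relative of Ctdspl, at 0.0123 ± 0.00818 (SD, n = 5) and 0.00177 ± 0.00139 (SD, n = 6, limma). None of the 16 tested promoters of 21 genes for mitochondrial aminoacyl-tRNA synthetases and related amidotransferase subunits was called, and 2 had an unadjusted p under 0.05. None of the 9 tested promoters of 12 genes for kinase interaction motif phosphatases, dual-specificity phosphatases and MAP kinases was called, and 1 (Mapk11) had an unadjusted p under 0.05. The median differences of the lists were 0.000297, 0.00271 and 0.00137, beside 0.00251 over all promoters tested. Mapk13, which encodes a p38 kinase, was the promoter of these lists with the highest control mean, at 0.428 ± 0.171 in the control line (SD, n = 6) and 0.270 ± 0.0598 in the experimental line (SD, n = 5), with an adjusted p of 0.298 from limma.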

How the data were processed

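Methylation was measured by RRBS in 12 libraries from 2 iMEF lines at 6 time points. The authors aligned reads with Bismark to mm10, per the labels, and deposited for each library a list of cytosines with the percent methylation of each. The files give no read counts, so depth is unknown, and a minimum depth is not given in the sources used here. In their own analysis the authors dropped sex chromosomes and sites of very high coverage, without data or of very low spread. The deposited lists still hold sex chromosomes and sites with 1 value throughout, and whether the coverage filter was applied to them is not known. Percent was divided by 100 to give beta values. The depth and the precision of a single value could not be set, and the number of libraries limits the precision of a mean. P-values measure only the spread between time points of 1 line.

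Autosomal cytosines listed in all 12 libraries were kept, and those identical in all were left out of tests. Beta values were turned into M-values, log2((beta + 0.01)/(1 - beta + 0.01)), and fitted with limma 3.58.1 in R 4.3.3 (lmFit, eBayes, Benjamini-Hochberg adjustment over all cytosines or promoters, threshold 0.05). The fits were control (n = 6) against experimental days 5 to 20 (n = 5), and line, day and their product over all 12. Fits were tested on simulated data. Tables used Python 3.11.15, numpy 2.4.6, pandas 2.3.3 and scipy 1.17.1, and plots matplotlib 3.10.9. Gene spans came from a RefSeq table of the same assembly, strands from the RefSeq promoter table or, by symbol alone, from an earlier annotation. No genome of that assembly was used.

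The members and lists were chosen with earlier results of these data known. Named were the key cytosines, the other strand of their CpG, the 5 nearest listed cytosines on each side, the 5 others per gene with the largest difference, the cytosines ranked next, the 3 nearest patterns, called promoters of the partner lists, and the neighbouring genes. The promoters of Ctdsp1, Mapk11 and Mapk13 were named after their values were seen, as were Sall1, the cytosines around Mir26a-1 and those of the smallest unadjusted p.
Alternatives were other M-value offsets, beta values, constant cytosines kept, day as a block, experimental day 0 added, each library left out, and other thresholds. Chosen after seeing the data were the run by day 0 alone, constant cytosines left out of promoters, and the values without control day 12.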

Additional observations from a re-analysis of the deposited data

Results flagged for a closer look

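In 28 groups of libraries (8 key or run cytosines and 6 gene means, in each line) a library stood apart from the rest of its group by Dixon's test at 95% in 6, where chance gives about 1 in 20. Many of these groups hold values of exactly 0 or 1, so that any other value stands apart. The Ctdspl key cytosine was at 0.0417 in control day 5 and at 0 in the other control libraries. The Lars2 key cytosine was at 0.92 in experimental day 16 and at 1 in the other 4. The Ptprr key cytosine was at 0.429 in experimental day 5 and the cytosine 31 bp downstream at 0.286 in the same library, and both were at 0 in the other 4. The Ptprr cytosine 43 bp downstream was at 0.923 in control day 16 and at 1 in the other 5. The Ptprr promoter window averaged 0.518 in control day 16 and between 0 and 0.167 in the other 5.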

How the results depend on the processing

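The count of cytosines called between the lines, 3124, was 5275 with an M-value offset of 0.05, 1707 with 0.001, 5954 on beta values and 5793 with experimental day 0 added; the cause was not tested. Without 1 library it ranged from 2240 to 3741. The 6 called members were between 4 and 6 without 1 library. With day as a replicate block over days 5 to 20, 0 cytosines, 0 members and 8 promoters were called, where 5 libraries remain in each line. Over all tested cytosines, deviations of the lines from their group means at the same day correlated at 0.00295 or less. Whether the lines share day effects at some of the cytosines was not tested. The 338 called promoters were 165 without experimental day 5, 173 without experimental day 12 and 215 without control day 5, and ranged from 165 to 360 over the libraries left out. No cytosine was called for line by day under any alternative.

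The key differences ranged without 1 library from 0.972 to 0.984 in Ctdspl, from 0.969 to 0.989 in Lars2 and from -1 to -0.893 in Ptprr. The difference of medians in Ctdspl was 1. The runs stayed at 1, 2 and 5 cytosines without any 1 library. The key cytosines, chosen because they were called in this contrast, were not called under the block (adjusted p from 0.104 to 0.106, limma). Unknown depth limits every single value.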
